A study of Homo sapiens with 6 samples.

Results

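The genes described here are 9 genes of vitamin A handling and of the chemerin system, measured in LX-2 cells with and without forced expression of FAP. They are RARRES2, which encodes chemerin, its receptor gene CMKLR1, and RARRES1, LRAT, STRA6, CRABP2, RARB, ALDH1A3 and CYP26B1. RARRES2 was chosen because its level in these libraries was among those that fell most. The other 8 genes were chosen by name around it, with this contrast already known. The 9 genes were picked out of 60748 in the table. LX-2 is an immortalized line of human hepatic stellate cells, the pericyte-like cells of the liver sinusoid. The LX-2FAP cells (n = 3 libraries) carried a lentiviral FAP overexpression construct driven by a ubiquitin promoter, and the LX-2Vector cells (n = 3) carried the matching vector without FAP. The construct carries EGFP and a puromycin resistance gene, stable cells were selected with puromycin, and both groups were cultured for 24 h in serum-containing medium with no added retinoid named in the labels. How many clones each group came from, and whether the 3 libraries of a group came from separate cultures, is not given in the sources used here. The p-values therefore measure the spread between these libraries, which may be technical.

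Quiescent stellate cells hold most of the body's vitamin A as retinyl esters in lipid droplets. They take up retinol, esterify it with LRAT, and can oxidize it to retinoic acid, which enters the nucleus with CRABP2, acts through the RAR and RXR receptors on genes such as RARB, and is broken down by CYP26 enzymes. Stellate cells lose this store when they become activated and fibroblast-like. Chemerin is a secreted protein first found as a product of a retinoid-induced gene. It becomes an attractant for macrophages and dendritic cells after proteases trim its tail, and it signals through CMKLR1 and through GPR1, now also named CMKLR2.

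FAP was read 49, 42 and 55 times in the LX-2Vector libraries and 14864, 15160 and 14805 times in the LX-2FAP libraries, so the labels and the construct went together in all 6 libraries. Library totals ran from 17355700 to 26352060 counts, and no gene took more than 0.726% of a library. Of 17 stellate cell markers, 9 had a mean of at least 1 FPKM (a level scaled to gene length and library size), with VIM at 312 and COL1A1 at 29.9 FPKM, but the defining markers COL1A2, DCN, DES, PDGFRA and GFAP were all at means of 0.102 FPKM or less. Among markers of other cells, 1 of 8 for hepatocytes, 2 of 8 for macrophages, 0 of 8 for endothelium and 2 of 8 for epithelium (KRT8 and KRT18) reached 1 FPKM. The summed stellate markers ran from 354 to 372 FPKM in LX-2Vector and from 362 to 384 in LX-2FAP, most of it VIM. Of the 17 stellate markers, 4 were called by the edgeR test named below, where 5.29% of all tested genes were called. VIM was higher, at 294, 300 and 309 FPKM in LX-2Vector and 331, 320 and 320 in LX-2FAP. The collagen gene COL1A1 was lower, at 35.1, 30.9 and 36.8 against 29.1, 21.8 and 25.5 FPKM. COL3A1, another collagen gene, was also lower, at 5.87, 5.66 and 7.12 against 4.63, 2.91 and 3.67 FPKM. PDGFRB, a growth factor receptor of stellate cells, was lower too, at 3.73, 3.14 and 3.65 against 3.01, 2.38 and 2.55 FPKM. Each of these 4 had no overlap between the groups, and their part in the results was not tested. Of all 18275 tested genes, 2447 lay lower and 2372 higher in LX-2FAP with no overlap of normalized CPM. The summed macrophage markers ran from 5.40 to 6.98 FPKM in LX-2Vector and from 6.16 to 8.04 in LX-2FAP. The summed endothelial markers ran from 1.66 to 1.89 FPKM in LX-2Vector and from 1.24 to 1.66 in LX-2FAP, with a narrow overlap. Of the markers of other cells only VWF, an endothelial marker, was called. It was lower, at 0.270, 0.172 and 0.274 FPKM in LX-2Vector and 0.139, 0.0634 and 0.132 in LX-2FAP, and its part was not tested. The summed hepatocyte markers, nearly all SERPINA1, ran from 2.68 to 3.09 FPKM in LX-2Vector and from 2.17 to 2.40 in LX-2FAP, and the epithelial ones from 60.7 to 63.1 and from 53.6 to 59.7. These 2 sums did not overlap between the groups, ALB and EPCAM had means of 0.0314 and 0.0734 FPKM, and their part in the results was not tested. Fewer cells that express a gene and less RNA of it per cell cannot be told apart in such bulk libraries.

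The start regions of 3 of the genes are shown because retinoic acid receptors, paired with RXR, bind repeats of a short half-site, and because the 3 genes differed in how they moved. A half-site was AGGTCA in its textbook form, or AGTTCA with 1 changed base, or the GGGTCA form, or GGTTCA with both changes, on either strand, and a direct repeat was a pair of half-sites on 1 strand with 0, 1, 2 or 5 bases between them (the spacing of 0 was added after the RARRES2 region had been seen). All 9 genes had an entry in the RefSeq promoter table, which is on GRCh38.p14 and runs from 250 bases before to 50 bases after 1 start site per gene, and the 250 bases before the start are printed for RARRES2 (chr7:150341630-150341879, minus strand), CRABP2 (chr1:156705785-156706034, minus strand) and RARB (chr3:25428013-25428262, plus strand). Capitals mark the half-sites and, where a direct repeat was found, the whole repeat with its spacer.
RARRES2: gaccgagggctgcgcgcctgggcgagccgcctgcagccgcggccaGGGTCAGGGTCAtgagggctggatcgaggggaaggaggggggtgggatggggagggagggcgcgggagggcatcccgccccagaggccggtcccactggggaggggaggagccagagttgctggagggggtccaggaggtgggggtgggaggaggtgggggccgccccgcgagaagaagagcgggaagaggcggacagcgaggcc
CRABP2: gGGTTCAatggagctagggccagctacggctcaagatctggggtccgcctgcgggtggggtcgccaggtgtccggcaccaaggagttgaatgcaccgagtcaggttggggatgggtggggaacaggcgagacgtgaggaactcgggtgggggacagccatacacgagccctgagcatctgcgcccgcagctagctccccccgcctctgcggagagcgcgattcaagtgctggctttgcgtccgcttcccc
RARB: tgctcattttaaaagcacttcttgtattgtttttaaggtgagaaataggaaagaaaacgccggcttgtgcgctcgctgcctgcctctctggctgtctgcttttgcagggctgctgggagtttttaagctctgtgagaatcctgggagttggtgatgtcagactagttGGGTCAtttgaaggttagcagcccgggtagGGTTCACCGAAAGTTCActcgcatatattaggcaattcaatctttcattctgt

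Counted back from the base before the start site as -1, the RARB region held a half-site at -83 to -78 and a direct repeat with a 5-base spacer at -53 to -37, the arrangement known from textbooks as the retinoic acid response element of this gene. Such a repeat was found in 31 of 35116 promoters in the table (0.0883%). The RARRES2 region held 2 GGGTCA half-sites that follow each other directly, at -205 to -194. Direct repeats with this spacing of 0, of any of the half-site forms, were found in 56 promoters (0.159%). As this spacing was added after the region had been seen, nothing is read from that share. Half-sites were common, with at least 1 in 38.58% of all promoters. They were also found at -249 to -244 before CRABP2, once before CMKLR1 and 3 times before STRA6, and these letters did not occur in the windows of RARRES1, LRAT, ALDH1A3 and CYP26B1. A match in letters is a description of the window and says nothing of binding. GENCODE places other starts for these genes as well, and the RARB window lies inside its longer gene span.

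On the length-scaled FPKM values the 9 genes ranged from no read to RARRES2, the highest. In LX-2Vector, RARRES2 stood at 14.98 ± 2.28 FPKM (SD, n = 3), followed by CRABP2 at 4.17 ± 0.698, RARB at 2.18 ± 0.242 and ALDH1A3 at 1.67 ± 0.242. CYP26B1 at 0.550 ± 0.1004 and RARRES1 at 0.417 ± 0.102 came next and overlapped in range. CMKLR1 stood at 0.0953 ± 0.0303 FPKM and STRA6 at 0.0245 ± 0.00575, and LRAT had no read. The order was the same in LX-2FAP. There, CRABP2 at 2.64 ± 0.705 FPKM overlapped RARB at 2.00 ± 0.0770, and CYP26B1 again overlapped RARRES1. The ranges of all other neighbours in the order did not overlap in either group.

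**Figure D1:**
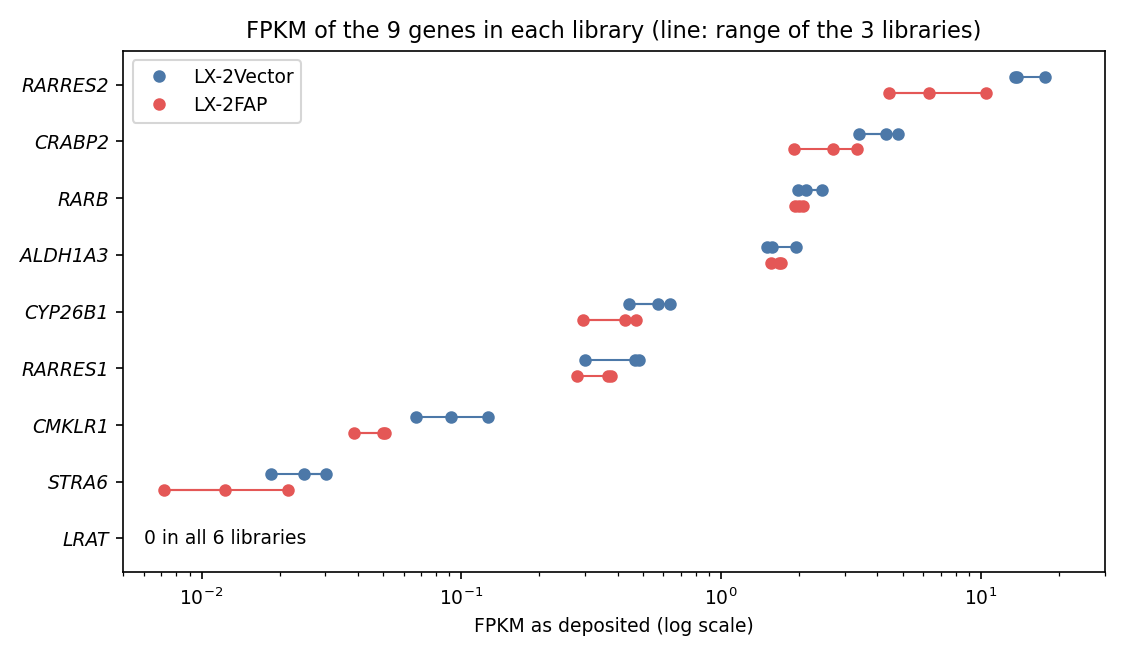
FPKM as deposited (log axis) of the 9 genes in each of the 3 LX-2Vector (blue) and 3 LX-2FAP (red) libraries, with lines over the range of each group. RARRES2 lies highest at 4.42 to 17.6 FPKM, CMKLR1 and STRA6 lie at or under 0.127 FPKM, and LRAT has no read in any library.

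LRAT, the enzyme that esterifies retinol for storage, had 0 counts in all 6 libraries. A count of 0 allows a level of up to 0.114 to 0.173 CPM (counts scaled to library size) per library, and of up to 0.0234 CPM over all libraries together, for counting error only. STRA6, the membrane receptor that brings retinol in from its plasma carrier, was read 5, 4 and 3 times in LX-2Vector and 4, 1 and 2 times in LX-2FAP. These few reads overlapped between the groups once scaled to depth, and STRA6 did not pass the filter on low counts. The gene lies at chr15:74179466-74212267 on the minus strand and LRAT at chr4:154626945-154753118 on the plus strand (gene coordinates are GENCODE 29 on GRCh38, looked up by identifier, although the processing notes of the submitters name an older build), and 7.02% of the exon bases of STRA6 are also exon of CCDC33 on the other strand.

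The other genes of retinol uptake and retinyl ester turnover were measured from lists fixed beside the 9 genes. RBP4, the plasma carrier of retinol, had 14 reads over the LX-2Vector libraries and 13 over the LX-2FAP libraries, and TTR had none. Of the 4 uptake and binding genes tested, none was called at an adjusted p under 0.05 (edgeR quasi-likelihood test, Benjamini-Hochberg over 18275 genes). SCARB1, a lipoprotein receptor that also brings in carotenoids, was the highest of them at 2.68 FPKM, with a log2 fold change of -0.23 ± 0.08 (SE) and an adjusted p of 0.105. It passed the threshold in 2 of 14 alternatives, with no filter and without the first LX-2FAP library. RBP7 followed at 1.597 FPKM with -0.03 ± 0.25, and RBP5, another cytosolic retinol-binding protein, at 0.823 FPKM with -0.42 ± 0.16 and an adjusted p of 0.138. RBP5 stood at 2.57, 3.08 and 2.96 normalized CPM in LX-2Vector and at 2.29, 2.00 and 2.05 in LX-2FAP, so its groups did not overlap although it was not called.

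Among 10 tested genes of retinyl ester storage and hydrolysis, 1 was called, where 5.29% of all tested genes were called. CES1, a carboxylesterase that can hydrolyse retinyl esters, stood at 2.61, 4.05 and 1.97 normalized CPM in LX-2Vector and at 1.71, 0.945 and 1.62 in LX-2FAP. Every LX-2FAP library lay under every LX-2Vector library. CES1 fell by 0.95 on the log2 scale (SE 0.26, adjusted p = 0.0466 by edgeR). Over 14 alternatives the adjusted p, by edgeR or limma, ran from 0.000298 to 0.178. DESeq2 gave CES1 no adjusted p, and it was counted there as not called. The call was kept in 6 of the 14. It was lost with limma at either pseudocount and with a replicate block. Without the first or the second LX-2Vector library, or the second or the third LX-2FAP library, it was lost too. Further, 24.2% of the 75-base words of its transcripts also occur in CES1P1 or CES1P2, so reads of these near-copies cannot be fully told apart. The lipases were higher in level: LIPA, the lysosomal acid lipase, at 24.9 FPKM with a log2 fold change of 0.06 ± 0.06, PNPLA2, the triglyceride lipase of lipid droplets, at 6.403 FPKM with -0.14 ± 0.06, and ABHD5, its activator, at 8.31 FPKM with 0.19 ± 0.06 and an adjusted p of 0.0558. None of these 3 was called, but ABHD5 passed the threshold in 5 of the 14 alternatives, namely DESeq2, DESeq2 size factors, no filter, a stricter filter of 10 counts per library, and without the first LX-2FAP library.

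ALDH1A3, one of the retinaldehyde dehydrogenases that make retinoic acid, was read 220, 139 and 219 times in LX-2Vector and 216, 151 and 193 times in LX-2FAP. On the normalized CPM scale these were 8.33, 7.92 and 10.3 against 9.01, 8.40 and 9.21, and the groups overlapped. The log2 fold change was 0.01 ± 0.11, and its sign turned among the alternative settings, which ran from -0.05 to 0.13. Of the exon bases of this gene (chr15:100877714-100916626), 27.5% are also exon on the other strand and 1.09% on the same strand. The genes that share these bases, on either strand, are AC015712.2 and AC015712.5. The strand setting of the counts is not given in the sources used here.

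The other retinaldehyde dehydrogenases were low. ALDH1A1 was read 35, 30 and 3 times in LX-2Vector and 1, 1 and 2 times in LX-2FAP, which is 1.32, 1.71 and 0.141 against 0.0417, 0.0556 and 0.0955 normalized CPM. The third LX-2Vector library lay close to the LX-2FAP libraries, and the gene did not pass the filter. With no filter on low counts its log2 fold change was -3.92 and it was called (adjusted p = 9.74e-13 by edgeR). The p-values of that setting depend strongly on the filter. For AKR1B10, described below, the edgeR adjusted p went from 0.0608 to 1.21e-13 at the same log2 fold change of -2.08. Such a p-value is therefore no measure of certainty for a gene with this spread in LX-2Vector. ALDH1A2 had 26 and 23 reads in total and ALDH8A1, tested, had a log2 fold change of -0.31 ± 0.30 (adjusted p = 0.594). ALDH1A3 was thus the enzyme of this list with the most reads in every library. Upstream of it, the highest of 12 tested genes that interconvert retinol and retinal were RDH11 at 51.9 FPKM (log2 fold change 0.07 ± 0.04), ADH5 at 27.4 FPKM (0.07 ± 0.04) and DHRS7 at 16.3 FPKM (0.16 ± 0.05, adjusted p = 0.0697), and none of the 12 was called.

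CRABP2, which carries retinoic acid to its receptors, was read 123, 64 and 109 times in LX-2Vector and 87, 53 and 44 times in LX-2FAP. Scaled to depth this was 4.66, 3.65 and 5.12 normalized CPM against 3.63, 2.95 and 2.10. The groups did not overlap, but the highest LX-2FAP library lay only just under the lowest LX-2Vector library. The log2 fold change was -0.63 ± 0.18 and ran from -0.85 to -0.44 over the alternatives. CRABP2 lies at chr1:156699606-156705816 on the minus strand. Its relative CRABP1 had no read in any library.

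CYP26B1, an enzyme that clears retinoic acid, was read 73, 37 and 65 times in LX-2Vector and 55, 26 and 44 times in LX-2FAP. These were 2.76, 2.11 and 3.06 normalized CPM against 2.29, 1.45 and 2.10. The second LX-2Vector library lay under the first LX-2FAP library, so the groups overlapped. The log2 fold change was -0.43 ± 0.20, and the gene lies at chr2:72129238-72148038 on the minus strand. CYP26A1 and CYP26C1, the other clearing enzymes, had no more than 3 reads in a group, and FABP5, which carries retinoic acid to PPARD, gave -0.09 ± 0.41.

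RARB, both a receptor for retinoic acid and a gene that it switches on, was read 192, 157 and 166 times in LX-2Vector and 172, 140 and 157 times in LX-2FAP. At 7.27, 8.95 and 7.80 against 7.18, 7.78 and 7.49 normalized CPM the groups overlapped, and the log2 fold change was -0.09 ± 0.11. The gene spans chr3:25174332-25597932 on the plus strand. Among the 6 tested genes of the 9, ALDH1A3, with no half-site in its window, had the log2 fold change nearest to 0. RARB, with the 5-spaced repeat, came next. A link between these letters and the changes was not tested. RARRES1, a retinoid-induced membrane protein, was read 16, 17 and 20 times against 18, 14 and 12 times, and its groups also overlapped (log2 fold change -0.22 ± 0.29). RARRES1 lies at chr3:158696892-158732696 on the minus strand, and 14.8% of its exon bases are also exon of MFSD1 or AC080013.1 on the other strand.

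Over all tested genes, 9685 of 18275 had a negative log2 fold change. Of the 11 tested receptors and cofactors, RARB included, 10 had one and none was called. The changes were small. RARG had the most negative one at -0.28 ± 0.09 (adjusted p = 0.0707), with 15.1 ± 1.30 normalized CPM in LX-2Vector and 12.5 ± 0.775 in LX-2FAP and no overlap (this gene was picked after its values were seen). NCOR1, a corepressor of these receptors, stood at 21.0 FPKM with a log2 fold change of -0.01 ± 0.04, and NCOA3, a coactivator, at 15.8 FPKM with 0.03 ± 0.04.

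Of 13 other tested genes listed as responsive to retinoic acid, 2 were called and both were higher. Over all tested genes, 5.29% were called and 2.57% were called higher. HOXB2, a homeobox gene with a retinoic acid response element, stood at 40.3, 39.8 and 37.5 normalized CPM in LX-2Vector and at 45.2, 45.8 and 45.0 in LX-2FAP. It rose by 0.21 on the log2 scale (SE 0.05, adjusted p = 0.0352 by edgeR, from 0.0260 to 0.165 over the alternatives). NRIP1, a retinoid-induced corepressor, stood at 322, 345 and 357 against 387, 372 and 384 and rose by 0.16 (SE 0.04, adjusted p = 0.0439 by edgeR, from 0.00749 to 0.205). The groups did not overlap for either gene, yet each call was kept in 6 of 14 alternatives. Both calls were lost with library size alone, with limma, and without the first or the second LX-2Vector library or the second or the third LX-2FAP library. HOXB2 also lost it without the third LX-2Vector library and NRIP1 without the first LX-2FAP library. Of the highest genes of this list, RAI14 at 89.8 FPKM gave 0.03 ± 0.04 and HOXB4 at 26.7 FPKM gave 0.03 ± 0.05.

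**Figure D2:**
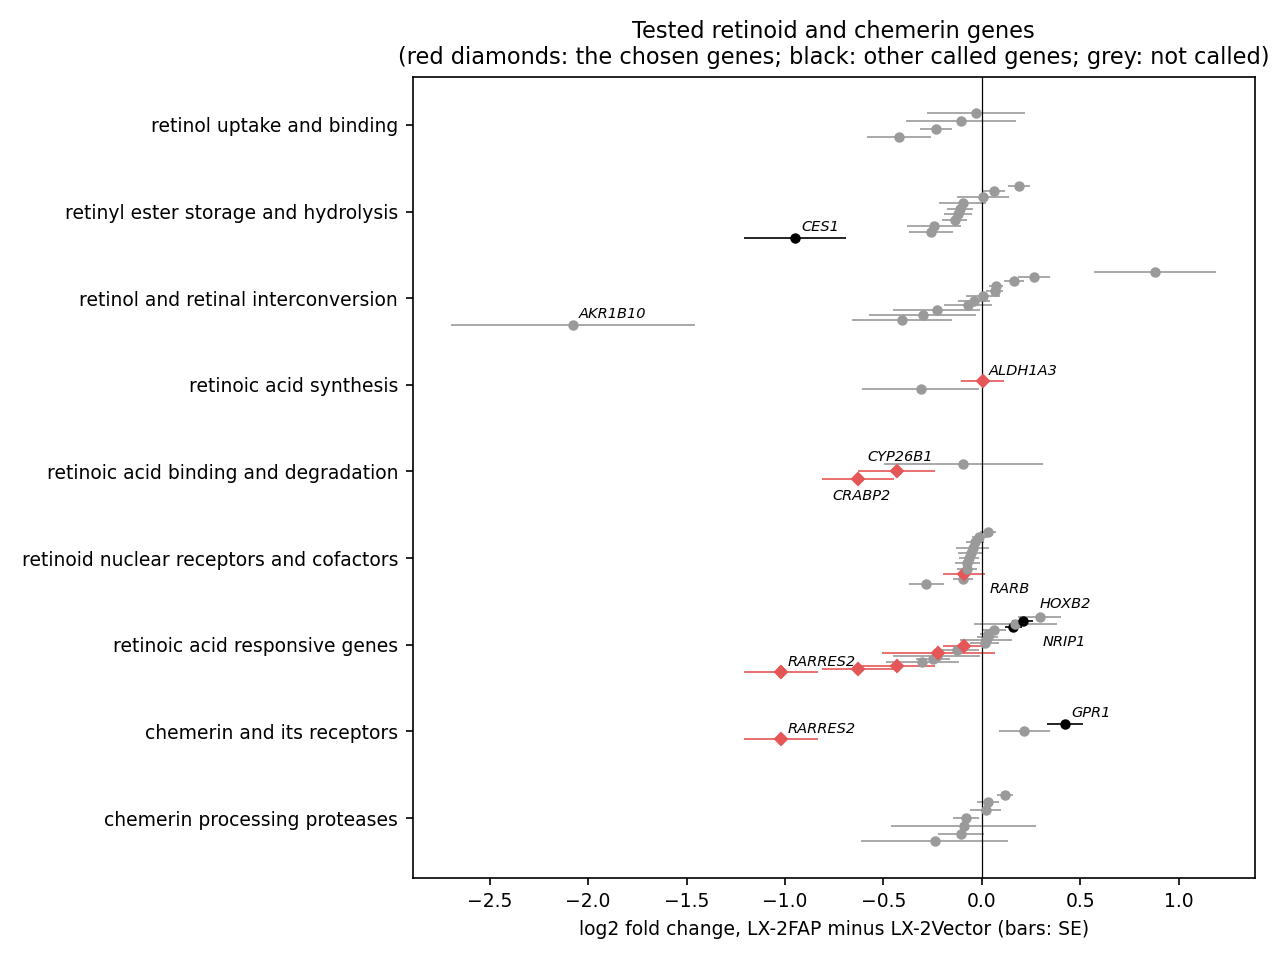
Log2 fold change, LX-2FAP minus LX-2Vector (x axis, bars are the SE of the fit), of every tested gene by list (y axis), with the chosen genes as red diamonds, other called genes in black and the rest in grey. Most points lie near 0, while RARRES2 at -1.02, CES1 at -0.95 and AKR1B10 at -2.08 stand to the left and GPR1 at 0.42 to the right.

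RARRES2 was read 695, 448 and 708 times in the LX-2Vector libraries and 485, 154 and 257 times in the LX-2FAP libraries. Scaled to depth this was 26.3, 25.5 and 33.3 normalized CPM against 20.2, 8.56 and 12.3. Every LX-2FAP library lay under every LX-2Vector library, and the LX-2FAP libraries spread more widely than the LX-2Vector libraries. The first LX-2FAP library, the highest in RARRES2, had the lowest FAP at 620 normalized CPM, and the second, the lowest in RARRES2, had the highest FAP at 843. The third had 707 of FAP. In LX-2Vector, by contrast, the third library was the highest in both, at 2.59 normalized CPM of FAP and 33.3 of RARRES2. These orders were seen after the fact, and with 3 libraries per group they were not tested. The log2 fold change was -1.02 ± 0.19, a mean of 28.4 ± 4.27 against 13.7 ± 5.96 normalized CPM (SD, n = 3 each), and it ranked 48 from the lowest among 18275 genes. RARRES2 lies at chr7:150338317-150341674 on the minus strand. None of the 75-base words of its transcripts occurred in another gene.

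CMKLR1, the chemerin receptor that carries its chemotactic signal, was read 19, 9 and 8 times in LX-2Vector and 7, 4 and 6 times in LX-2FAP, at 0.719, 0.513 and 0.376 against 0.292, 0.222 and 0.286 normalized CPM. The gene lies at chr12:108288044-108339341 on the minus strand. The groups did not overlap, but the gene did not pass the filter and its totals of 36 and 17 reads give the difference a large counting error. GPR1, the other signalling receptor, had more RNA. It stood at 9.80, 10.6 and 9.73 normalized CPM in LX-2Vector and at 12.02, 14.5 and 13.9 in LX-2FAP, and the groups did not overlap. GPR1 rose by 0.42 on the log2 scale (SE 0.09, adjusted p = 0.0197 by edgeR, from 0.00130 to 0.129 over the alternatives). The call was kept in 8 of 14 alternatives and lost with limma and without the first or the third LX-2Vector library or the second or the third LX-2FAP library. In FPKM, GPR1 was 37.5 times CMKLR1 in LX-2Vector and 101 times in LX-2FAP. CCRL2, which binds chemerin without signalling, gave 0.21 ± 0.13 (adjusted p = 0.358).

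Chemerin is secreted as an inactive precursor, so the proteases that trim it were read as well. Of 14 listed, 7 could be tested and none was called. Cathepsin L, CTSL, was the highest at 85.5 FPKM with 0.12 ± 0.04 (adjusted p = 0.0899). PLAT and PLAU, the plasminogen activators, stood at 21.3 and 14.4 FPKM with -0.08 ± 0.07 and 0.03 ± 0.06. Plasminogen itself (PLG) had no read in any library.

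**Figure D3:**
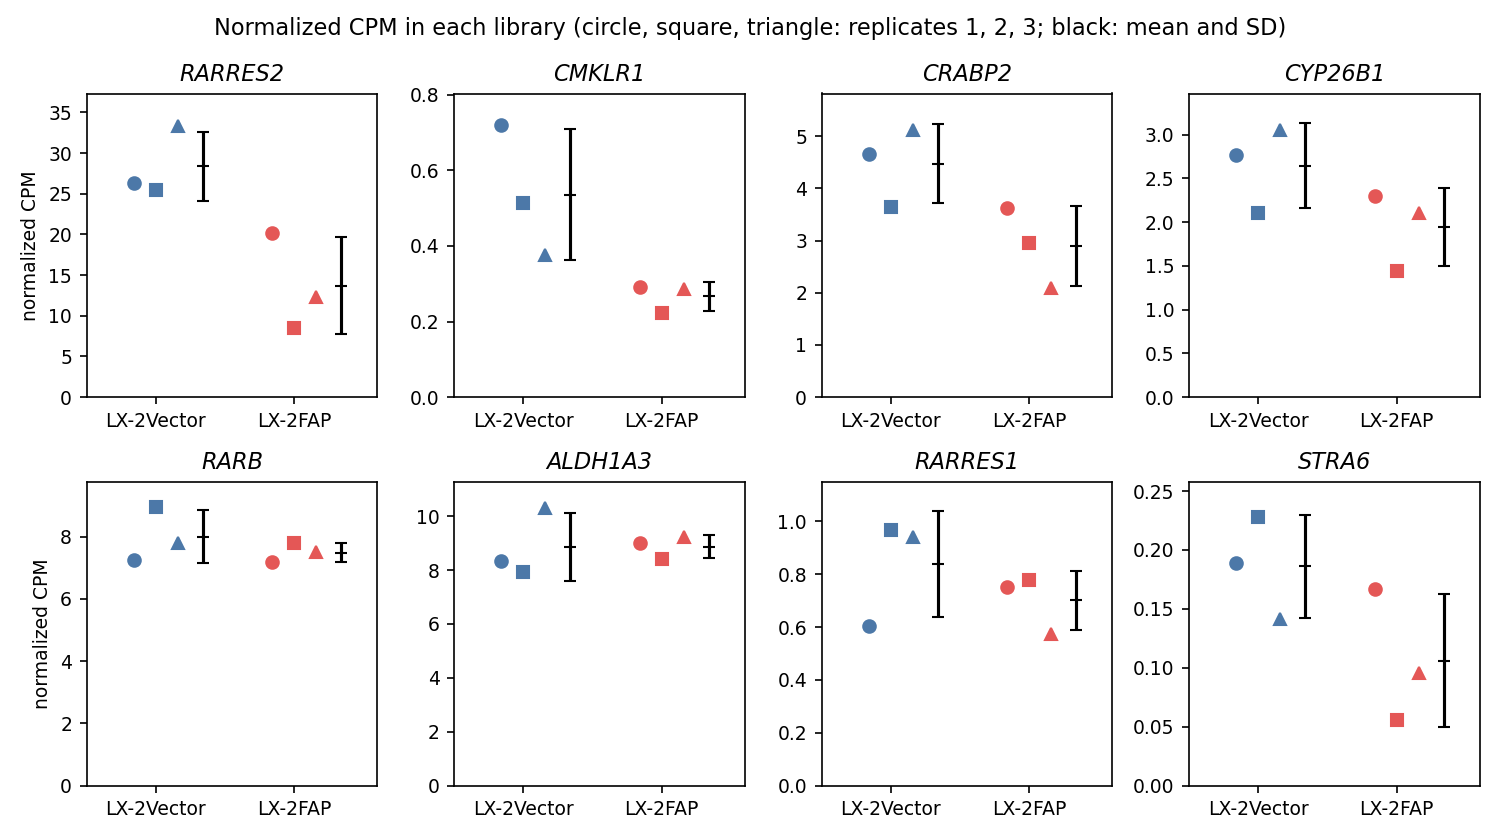
Normalized CPM (y axes from 0) of the 8 chosen genes with any read in each library, with replicates 1, 2 and 3 as circle, square and triangle and the mean ± SD in black. RARRES2, CMKLR1 and CRABP2 separate the 3 LX-2Vector libraries (blue) from the 3 LX-2FAP libraries (red), and the groups overlap for the other 5.

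Of the 9 genes, 6 passed the filter and 1 of them, RARRES2, was called lower, where 5.29% of all tested genes were called in either direction and 2.73% were called lower. Since RARRES2 was chosen by this contrast, nothing follows from that count. RARRES2 and CRABP2 were the 2 tested genes with no overlap, both lower, where 13.4% of all tested genes had all LX-2FAP libraries under all LX-2Vector libraries. The median log2 fold change was -0.33 over the 6 genes and -0.01 over all tested genes. Over the 59 other tested genes of the lists, 4 were called (6.78%), namely CES1 lower and NRIP1, HOXB2 and GPR1 higher, where 2.57% of all tested genes were called higher. The median of the 59 was -0.06, and 35 of them were negative, as were 9685 of all 18275 tested genes.

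The direction of RARRES2 was negative under all 14 alternative settings, with a log2 fold change from -1.43 without the first LX-2FAP library to -0.79 without the second. It stayed called in 10 of them. This describes the settings only, since RARRES2 was chosen by this contrast in these same libraries. The call was lost with the DESeq2 Wald test, with limma on log2(FPKM + 1) and on log2(FPKM + 0.1), and without the third LX-2FAP library. CRABP2 was called in 4 of the 14, with library size alone, with no filter on low counts, without the second LX-2Vector library and without the first LX-2FAP library, and RARB, ALDH1A3, RARRES1 and CYP26B1 were called in none.

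**Figure D4:**
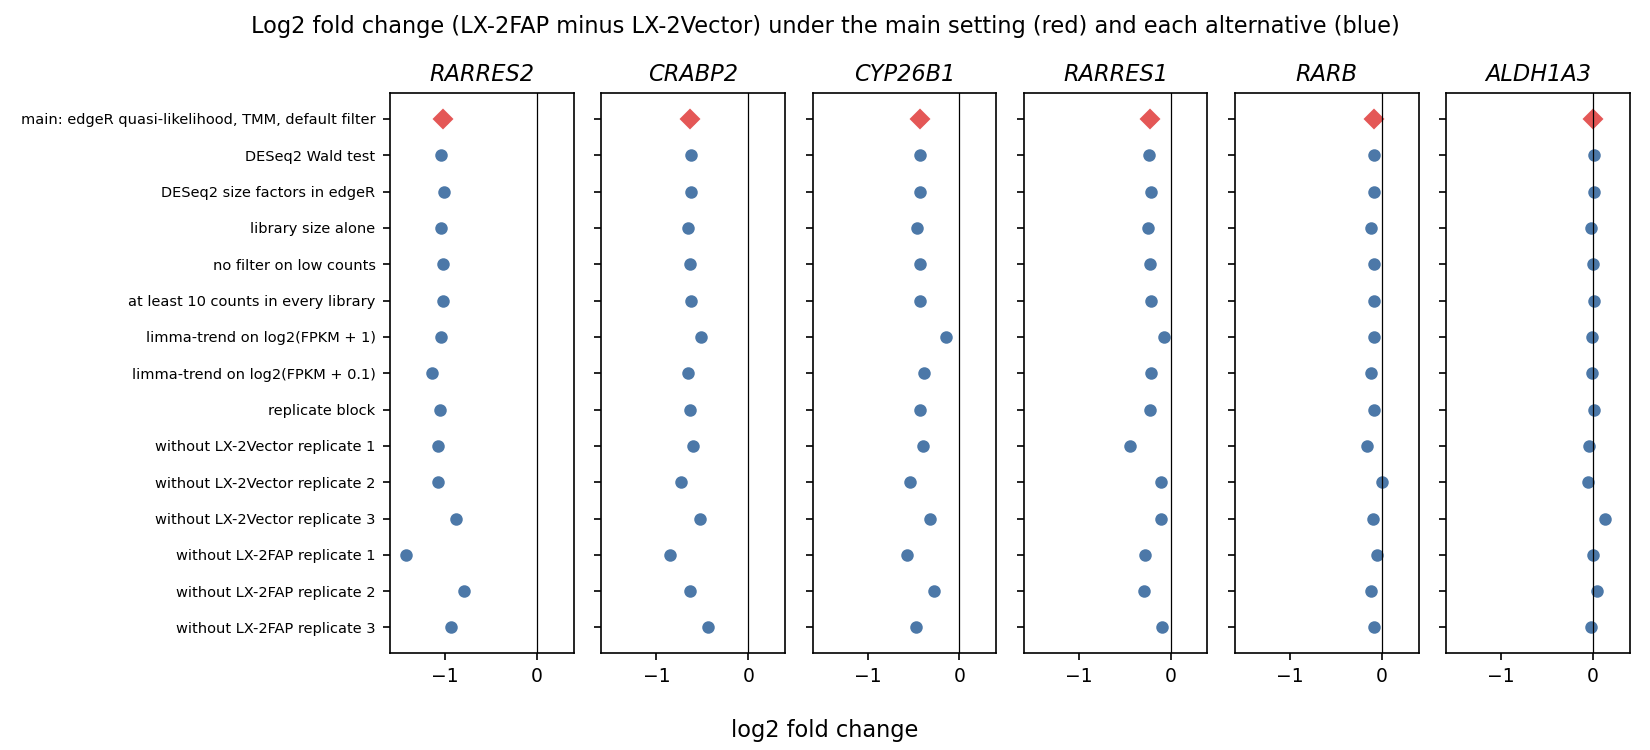
Log2 fold change, LX-2FAP minus LX-2Vector (x axes), of the 6 tested genes under the main setting (red, top) and the 14 alternatives (blue, y axis). RARRES2 stays left of 0 from -1.43 to -0.79 and CRABP2 from -0.85 to -0.44, while ALDH1A3 lies on both sides of 0.

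Among the other chosen genes its log2 CPM went most closely with CYP26B1 (Pearson r 0.893 over 6 libraries, 0.828 after the group means were removed) and CRABP2 (0.819 and 0.507). It went least with RARB (0.155 and -0.423). These values describe 6 libraries that share their groups and carry no p.

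Among the 11555 other genes tested whose counts averaged 100 or more, the 5 most like RARRES2 over the 6 libraries were VAT1L (r 0.999), INSIG1 (0.998), MUC20-OT1 (0.998), FDPS (0.997) and PRUNE2 (0.996). After the group means were removed their r was 0.992 to 0.998. That value is not independent of the choice, which was made by r over these same libraries. INSIG1, a membrane protein of the endoplasmic reticulum that holds back sterol synthesis, stood at 212, 208 and 235 normalized CPM in LX-2Vector and at 194, 138 and 162 in LX-2FAP. FDPS, an enzyme of the mevalonate pathway, stood at 88.3, 87.3 and 91.7 against 80.6, 66.7 and 72.1. VAT1L stood at 95.3, 94.5 and 99.0 against 90.1, 75.5 and 81.2. In all 5, as in RARRES2, the third LX-2Vector library was the highest of all and the second LX-2FAP library the lowest. Their falls were smaller, with log2 fold changes of -0.40 for INSIG1, -0.28 for FDPS, -0.22 for VAT1L, -0.49 for PRUNE2 and -0.13 for MUC20-OT1. These r values rest on 6 libraries and were picked as the highest of many, so they are given as a description with no p.

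**Figure D5:**
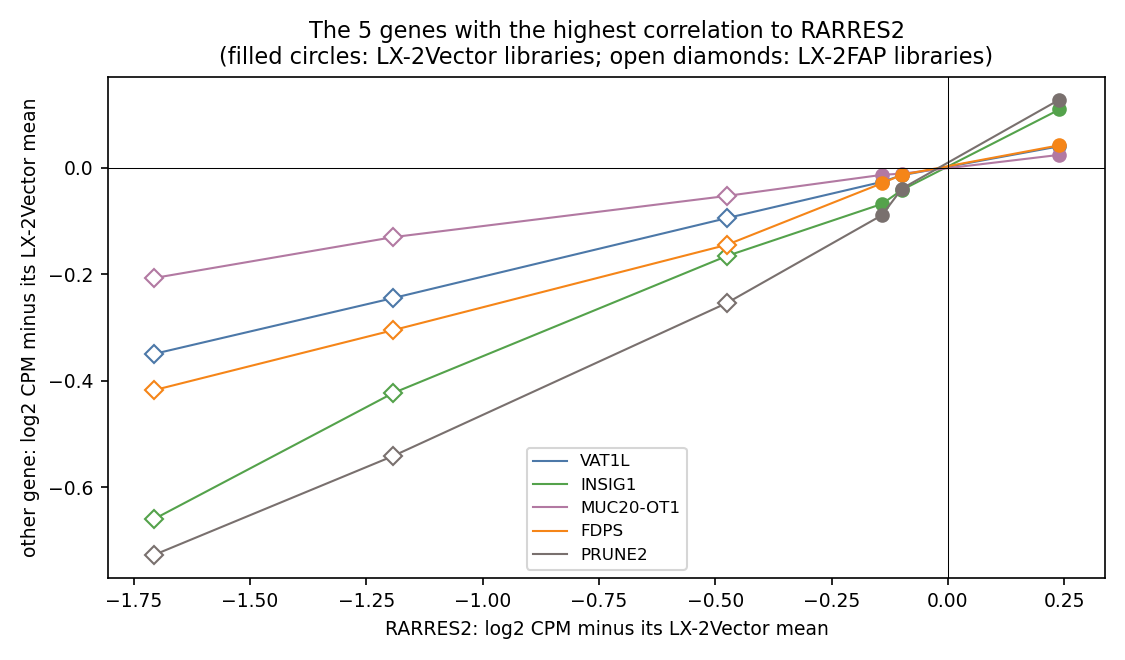
Log2 CPM minus the LX-2Vector mean of each gene, for RARRES2 (x axis) and for the 5 genes with the highest r (y axis), in the 3 LX-2Vector (filled circles) and 3 LX-2FAP (open diamonds) libraries. All 5 follow RARRES2 from library to library with r of 0.996 to 0.999 and with shallower slopes.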

How the data were processed

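RNA of LX-2Vector (n = 3) and LX-2FAP (n = 3) cells was sequenced. Per the labels, libraries came from RNA depleted of ribosomal RNA, while the methods list poly(A) selection too. The authors aligned reads with HISAT2 2.0.5 and deposited raw counts per gene from featureCounts 1.5.0-p3, and FPKM values computed by the authors from those counts and a gene length. The submitters' processing notes name the build hg18, while 58337 of 60605 Ensembl identifiers are in GENCODE 29, from which GRCh38 coordinates were looked up by identifier. Annotation release and strandedness are not given in the sources used here.

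Counts were tested with edgeR 4.0.16 (quasi-likelihood, TMM, filterByExpr with a minimum count of 10, 2-sided), in R 4.3.3, with Benjamini-Hochberg adjustment over 18275 genes, and genes were called at an adjusted p under 0.05. CPM values used TMM factors. DESeq2 1.42.0 and limma 3.58.1 (pseudocounts of 1 and 0.1) served as alternatives. The members and lists were chosen with earlier results of these data known. No p-value is given for a member, since the members were chosen with this contrast known, RARRES2 by its fall. Named are FAP, the members, called list genes, the 3 list genes with the highest FPKM, and the 5 genes most like RARRES2. Some genes that this rule names are not reported here. Limits for counts of 0 are 3 counts and cover counting error only. Same-numbered libraries did not deviate together (r from -0.04 to 0.04).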

Additional observations from a re-analysis of the deposited data

How the results depend on the processing

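Of the 9 chosen genes, 1 was called in the reported fit. The number was 0 with the DESeq2 Wald test and with limma on FPKM at either pseudocount, 2 with library size alone or with no filter on low counts, 3 at the study's cutoff of a fold over 1.2 with an unadjusted p under 0.05, and 0 to 2 with 1 library left out. Over all genes, 1441 of 18275 tested passed the study's cutoff. Nothing is read from the count of chosen genes that passed it. Of the other list genes, 4 were called. The number was 9 with no filter, 0 with limma at either pseudocount, 8 at the study's cutoff and 0 to 8 with 1 library left out, with 0 without the second or without the third LX-2FAP library, 1 without the first or without the second LX-2Vector library, and 8 without the first LX-2FAP library. Over all genes, leaving out a library moved the calls from 967 to between 26 (without the third LX-2FAP library) and 1949 (without the first), and limma called 2 genes at either pseudocount, against 3662 and 3638 at an unadjusted p under 0.05. The cause was not tested. Log2 fold changes near 0 changed sign with 1 library left out for RBP7 (-0.33 to 0.14), LIPA (-0.00097 to 0.11), FABP5 (-0.45 to 0.26), NCOR1 (-0.025 to 0.0018), HOXB4 (-0.0048 to 0.059) and PLAU (-0.018 to 0.066).

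With a replicate block, 1 chosen gene, 3 other list genes and 975 genes in all were called. CES1 lost its call (adjusted p = 0.0667). Whether the replicate numbers pair the libraries is not given in the sources used here. No LX-2Vector library correlated best with the LX-2FAP library of its own number, but 3 libraries per group cannot settle the pairing.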

Other observations

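AKR1B10, an aldo-keto reductase that reduces retinal to retinol, had the most negative log2 fold change of the 59 other list genes that passed the filter (-2.08 ± 0.62) and was picked after its values were seen. It was read 73, 83 and 6 times in LX-2Vector and 7, 11 and 19 times in LX-2FAP, so the third LX-2Vector library lay among the LX-2FAP libraries. It was not called (adjusted p = 0.0608 by edgeR), but it was called with no filter on low counts (adjusted p = 1.21e-13 by edgeR). The log2 fold change was -2.08 in both fits, so the filter moved the p-value and not the size of the change. ALDH1A1 split the LX-2Vector libraries in the same way, with 35, 30 and 3 reads, and CES1 was also lowest there in the third. The epithelial marker KRT20 split likewise, at 0.456, 0.602 and 0.0496 FPKM in LX-2Vector and 0.0432, 0.0287 and 0.0246 in LX-2FAP. It was picked after its values were seen. KRT8 and KRT18 did not split in this way, and what these genes share was not tested. RARRES2 did not split in this way either, since the third LX-2Vector library was its highest. Without that library the log2 fold change of RARRES2 was -0.88.

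RDH16, a dehydrogenase of retinol, stood at 0.428 ± 0.0371 normalized CPM in LX-2Vector and 0.798 ± 0.198 in LX-2FAP (log2 fold change 0.88 ± 0.31, adjusted p = 0.106), on 28 and 50 reads in all, and RDH14 at 11.1 ± 0.144 and 13.3 ± 0.540 (0.27 ± 0.08, adjusted p = 0.0666). Neither was called.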
